A study of Drosophila melanogaster with 9 samples.

Results

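The 3 genes described here encode the histone H3 lysine 9 (H3K9) methyltransferases of Drosophila: Su(var)3-9 (CG6476), G9a (CG2995) and egg, also called eggless or SETDB1 (CG12196). They were taken by gene identifier from 15168 genes, together with all 5 of their transcripts among 22353 transcripts. Total RNA had been sequenced from Drosophila S2 cells, a cell line of embryonic, hemocyte-like origin, in 9 libraries. The cells had received 1 µg of double-stranded RNA (dsRNA) and were kept with it for 3 days. The dsRNA was directed against HP1a (3 libraries), against Su(var)3-9 (3 libraries) or, as a mock treatment in the same cell line, against GFP (3 control libraries). The control libraries are titled S2 only, and their RNAi label reads GFP (control). By the study's methods the dsRNA was transcribed in vitro and placed on exons. Where a target protein has isoforms, exons that they have in common were used. Values are TPM, a transcript level scaled for transcript length and to a common library total. This unit does not carry the sequencing depth, which is unknown from these tables, so values come without a counting interval.

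Methylated H3K9 is the mark on which heterochromatin is built. HP1a binds it through its chromodomain, and HP1a in turn recruits Su(var)3-9, which adds further di- and trimethylation around the centromeres. egg trimethylates H3K9 on the fourth chromosome, at transposons and in the germ line with its cofactor wde (windei), and G9a places mainly dimethylation in euchromatin. The study depleted HP1a or Su(var)3-9 to ask how much the expression of genes inside heterochromatin depends on them. Whether the transcript of one H3K9 methyltransferase changes when another or HP1a is targeted can be read from the same libraries.

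Su(var)3-9 is an unusual gene, because it lies within the gene of eIF2gamma, a subunit of the translation initiation factor that carries the initiator tRNA to the ribosome. In the BDGP6 annotation Su(var)3-9-RA lies on the minus strand of chromosome arm 3R and has 3 exons of 2386 bases in all. Its first 2 exons are shared with eIF2gamma-RB and eIF2gamma-RD, each of 5 exons. These shared exons hold 352 bases, which is 14.8% of Su(var)3-9-RA. eIF2gamma-RC shares 1 exon of 175 bases with it. The deposited tables use the older dm3 assembly and list 1 gene, CG6476, with transcripts RA (2404 bases), RB (1988 bases) and RC (1936 bases). RA is read here as Su(var)3-9, and RB and RC as eIF2gamma. That reading rests on the transcript letters and on lengths that are close to, but not the same as, those of BDGP6. Reads from the shared exons were divided between RA and RB by the authors' estimation and not by sequence alone. The gene value of CG6476 is therefore the sum of a methyltransferase and a translation factor, and only RA is a measure of the enzyme. egg (3948 bases, chromosome arm 2R) and G9a (6521 bases, chromosome X) have 1 listed transcript each. BDGP6 gives G9a a further transcript, G9a-RB, which was not analysed here.

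The targeted genes were examined first, since they check the labels. CG6476 had 380, 262 and 463 TPM in the Su(var)3-9 RNAi-labelled libraries, against 36.9, 23.8 and 36.4 TPM in the control, a separation upward that 0.335% of tested genes had. The HP1a gene (CG8409) had 393, 285 and 317 TPM in the HP1a RNAi-labelled libraries, against 91.5, 53.8 and 79.7 TPM in the control. Both targets were higher in the libraries labelled with their knockdown, so the groups below go by the labels alone, and no direction is to be read as following from loss of the protein. The study checked the proteins separately, and these files hold RNA values alone. Su(var)3-9 RNAi replicate 3 stood apart. Over the tested genes its Pearson r of log2(TPM + 1) with the other 8 libraries was 0.751 to 0.811, while the other 28 pairs gave 0.928 to 0.990. The summed level of 8 hemocyte markers was 26.0 to 29.2 TPM in the HP1a RNAi-labelled libraries, 18.8 to 38.1 TPM in those labelled Su(var)3-9 RNAi and 24.5 to 31.3 TPM in the control. Of these markers, Pxn and srp were present in every library and made up most of the sum, and NimC1 was at or near 0. Mean levels with HP1a RNAi were 0.49 TPM for Hml, 0.28 for Ppn, 1.72 for vkg and 1.66 for Col4a1. With Su(var)3-9 RNAi they were 0.90, 0.41, 1.78 and 1.47 TPM, and in the control 1.04, 0.58, 2.70 and 3.07 TPM. He and Pxn went the other way. He had means of 2.37, 1.55 and 1.23 TPM in these 3 groups, and Pxn 14.3, 15.1 and 12.6 TPM. The summed level of 9 markers of neurons, muscle, germ line, ovarian soma and fat body was 0.85 to 1.17 TPM with HP1a RNAi, 0.90 to 2.51 TPM with Su(var)3-9 RNAi and 1.66 to 2.55 TPM in the control, with Mhc, Act88F and Lsp2 at or near 0. Most of this sum came from elav, a neuronal marker, and bam, a germ line marker. elav had 0.32, 0.43 and 0.40 TPM with HP1a RNAi and 0.19, 0.18 and 0.78 TPM with Su(var)3-9 RNAi, against 1.19, 0.72 and 1.05 TPM in the control. bam had 0.35 to 0.76 TPM with HP1a RNAi and 0.55 to 1.44 TPM with Su(var)3-9 RNAi, against 0.83 to 1.27 TPM in the control. In these pooled cells, fewer cells with a transcript and less of it per cell cannot be told apart.

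Outside the Su(var)3-9 RNAi-labelled libraries, the 4 tested transcripts had a fixed order of level. In each of these 6 libraries CG6476-RB was highest, followed by egg, CG6476-RA and G9a. Over these 6 libraries CG6476-RB lay between 21.9 and 33.8 TPM, egg between 4.48 and 6.08 TPM, CG6476-RA between 1.93 and 3.25 TPM and G9a between 1.03 and 1.46 TPM. The ranges do not overlap, so each step of this order is larger than the spread between libraries. Of the 3 enzymes' transcripts, egg was thus the most abundant in these libraries and G9a the least. Of the other tested genes, 45.9% had a lower control mean than egg and 2.24% a lower control mean than G9a. Of the other tested transcripts, 28.2% had a lower control mean than CG6476-RA and 90.1% a lower one than CG6476-RB. CG6476-RC was listed at 0 in 8 libraries and at 0.18 TPM in HP1a RNAi replicate 2, and was not tested.

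**Figure D1:**
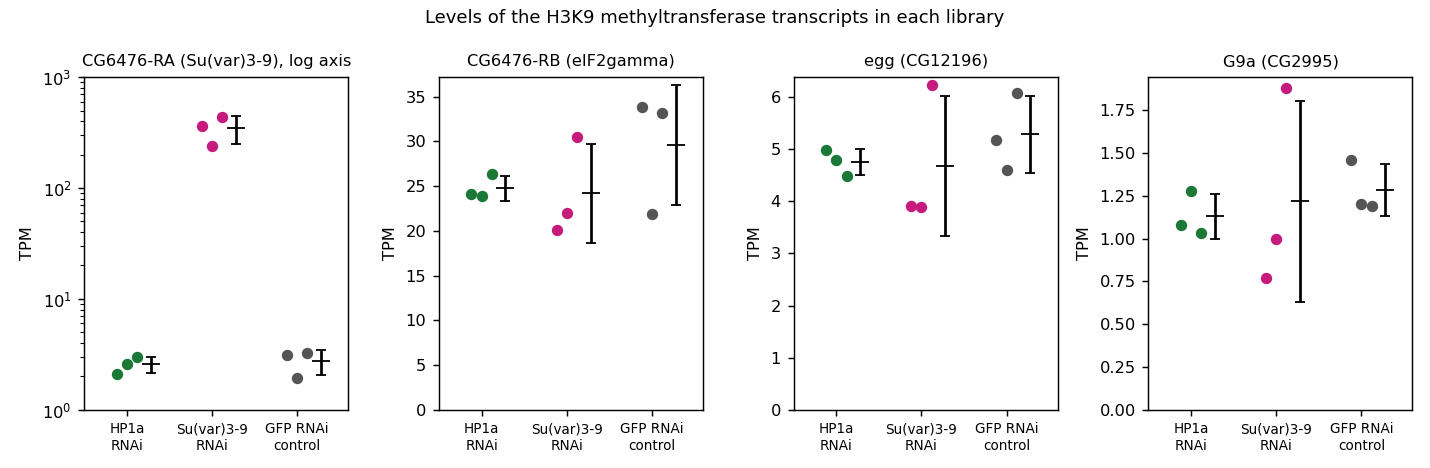
Level of each transcript (vertical axes, TPM, with a log axis for CG6476-RA) in the 3 libraries of each group. Points are libraries, and the bars give the mean ± SD (n = 3). CG6476-RA lies between 240 and 433 TPM in the Su(var)3-9 RNAi-labelled libraries and between 1.93 and 3.25 TPM elsewhere, while the points of the other 3 transcripts overlap between groups.

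CG6476-RA, the Su(var)3-9 transcript, carried the rise of its gene. It had 360, 240 and 433 TPM in the Su(var)3-9 RNAi-labelled libraries, against 3.09, 1.93 and 3.25 TPM in the control. The means were 344 ± 97.3 TPM and 2.76 ± 0.720 TPM (SD, n = 3 each), a 125-fold ratio. TPM do not separate RNA made by the cells from reads of the added exonic dsRNA, and the part of such reads in these values was not tested. All 3 libraries lay above every control library, as in 0.506% of tested transcripts. CG6476-RB, the eIF2gamma transcript, had 20.1, 22.0 and 30.5 TPM in the Su(var)3-9 RNAi-labelled libraries, against 33.8, 21.9 and 33.1 TPM in the control. These values overlap between the groups.

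Differences were tested with limma on log2(TPM + 1), over the 6573 genes and 7704 transcripts that averaged 1 TPM or more, and called at a Benjamini-Hochberg adjusted p under 0.05. On this scale the fold change of a low feature is understated. CG6476-RA rose by a log2 fold change of 6.50 (95% interval 5.79 to 7.21, limma adjusted p = 5.15e-05). It had the largest log2 fold change of the 7704 transcripts tested in this comparison. CG6476-RB had a log2 fold change of -0.28 (95% interval -0.94 to 0.38, limma adjusted p = 0.814). Of the 4 tested member transcripts, 1 was thus called higher, where 0.026% of all tested transcripts were called higher and 0.0779% in either direction. The gene CG6476, which sums both, rose by 3.46 (SE 0.37, limma adjusted p = 2.24e-04). It was the only gene called higher (0.0152% of tested genes) among 11 called in all (0.167%). Without Su(var)3-9 RNAi replicate 3, the log2 fold change of CG6476-RA was 6.31.

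The make-up of CG6476 changed accordingly. RA made up 94.7%, 91.6% and 93.4% of the CG6476 TPM in the Su(var)3-9 RNAi-labelled libraries, against 8.38%, 8.11% and 8.94% in the control. The difference between the means was 84.8 percentage points, and the groups do not overlap. An exact two-sided permutation test over 3 against 3 libraries gave p = 0.1 (adjusted over 2 share tests, 0.2), which is the smallest p this design allows. In the HP1a RNAi-labelled libraries the share was 8.06%, 9.73% and 10.2%, which overlaps the control, with a difference of 0.859 points (exact permutation p = 0.4).

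**Figure D2:**
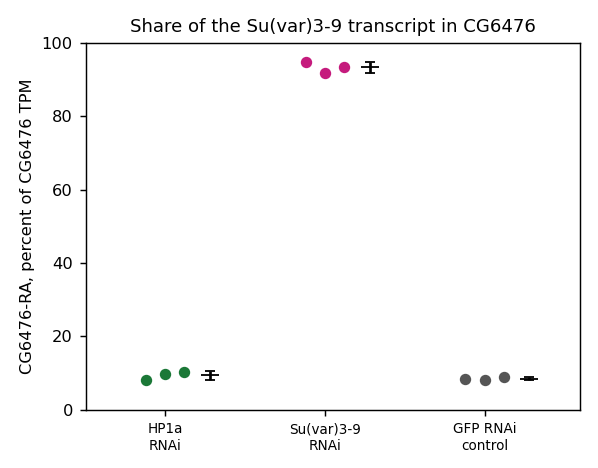
Share of CG6476-RA, the Su(var)3-9 transcript, in the CG6476 TPM of each library (vertical axis, percent). Points are libraries and bars the mean ± SD (n = 3). The libraries labelled Su(var)3-9 RNAi sit between 91.6% and 94.7%, and the other 6 between 8.06% and 10.2%.

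egg and G9a, which could in principle take over methylation of H3K9, showed no called change in the Su(var)3-9 RNAi-labelled libraries. egg had 3.91, 3.89 and 6.24 TPM there, against 5.18, 4.61 and 6.08 TPM in the control. Replicates 1 and 2 lay below every control library and replicate 3, the library that stood apart, above every one. The log2 fold change of egg was -0.17 (95% interval -0.72 to 0.39, limma adjusted p = 0.833). G9a, which methylates euchromatic H3K9, had 0.77, 1.00 and 1.88 TPM in the Su(var)3-9 RNAi-labelled libraries, against 1.46, 1.20 and 1.19 TPM in the control. It had the same split, with replicate 3 highest of all 9 libraries. Its log2 fold change was -0.07 (95% interval -0.55 to 0.41, limma adjusted p = 0.907). The upper ends of these intervals correspond to 1.31-fold for egg and 1.33-fold for G9a on the TPM + 1 scale. On that scale, a larger rise of either transcript lies outside its interval. In TPM the corresponding rise is larger, more so for G9a, and the median of all tested genes (-0.23) is not taken off. The lower ends, -0.72 for egg and -0.55 for G9a, are larger in size. Changes within the intervals, in either direction, cannot be told from none with 3 libraries a group. Without replicate 3 the log2 fold changes were -0.35 for egg (limma adjusted p = 0.310) and -0.28 for G9a (limma adjusted p = 0.277).

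The libraries labelled HP1a RNAi held no called change in any of the 3 member genes. egg had 4.98, 4.80 and 4.48 TPM in them, against 5.18, 4.61 and 6.08 TPM in the control, and the groups overlap. Its log2 fold change was -0.12 (95% interval -0.47 to 0.22, limma adjusted p = 0.576). G9a had 1.08, 1.28 and 1.03 TPM in the HP1a RNAi-labelled libraries, with 2 of the 3 below every control library. Its log2 fold change was -0.10 (95% interval -0.39 to 0.19, limma adjusted p = 0.593). CG6476-RA, whose protein is recruited by HP1a, had 2.11, 2.59 and 2.99 TPM, within the spread of the control, and a log2 fold change of -0.06 (95% interval -0.51 to 0.38, limma adjusted p = 0.841). CG6476-RB had 24.1, 23.8 and 26.3 TPM and a log2 fold change of -0.23 (95% interval -0.72 to 0.27, limma adjusted p = 0.526). None of the 3 genes and 4 tested transcripts reached an unadjusted p of 0.05 in limma. In this comparison 4.34% of all tested genes and 0.325% of tested transcripts were called in either direction. Without control replicate 2, which had the lowest CG6476 value of the 9 libraries, the gene CG6476 was called lower at -0.41 (limma adjusted p = 0.0361). In that setting 2767 genes were called, against 285 with all 6 libraries, and 41.6% of all tested genes were called lower.

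These changes have to be read against the whole library. The median log2 fold change of all tested genes was -0.27 in the HP1a RNAi comparison and -0.23 in the Su(var)3-9 RNAi comparison. Relative to that median, egg stood at 0.14 and G9a at 0.17 in the HP1a RNAi comparison, and at 0.06 and 0.16 in the Su(var)3-9 RNAi comparison. With median-ratio size factors, which bring the median close to 0, the fold changes of egg, G9a and CG6476-RB were all above 0 in both comparisons, between 0.01 and 0.18. Their sign therefore depends on the scaling, and no direction is given for them. Both comparisons share the same 3 control libraries.

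**Figure D3:**
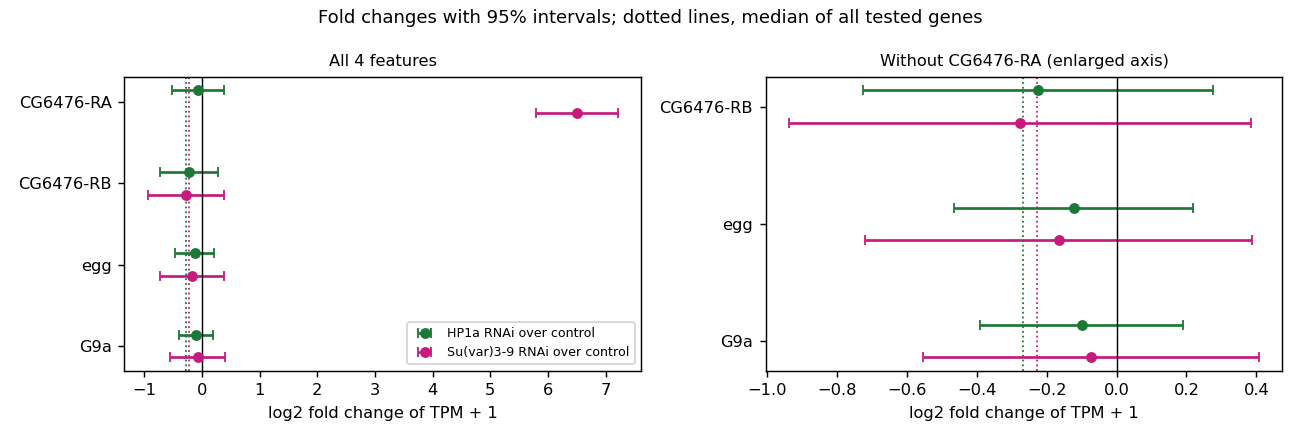
Log2 fold change of TPM + 1 over the control (horizontal axis) for the member transcripts, with the 95% interval from limma, in the HP1a RNAi (green) and Su(var)3-9 RNAi (magenta) comparisons. The right panel enlarges the axis without CG6476-RA. Dotted lines mark the medians of all tested genes, -0.27 and -0.23, and every interval but that of CG6476-RA in the Su(var)3-9 RNAi comparison includes 0.

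Plain TPM ratios within a library are free of its scaling, so they were used to ask whether one enzyme changed against another. They are not free of a shift that goes with transcript length, set out below, and the log2 ratios carry a pseudocount. The ratio of egg to G9a was 4.61, 3.75 and 4.35 in the HP1a RNAi-labelled libraries, 5.08, 3.89 and 3.32 in those labelled Su(var)3-9 RNAi, and 3.55, 3.84 and 5.11 in the control. The groups overlap. The log2 ratio (pseudocount 0.1 TPM) differed from the control by 0.03 in the HP1a RNAi-labelled libraries (exact permutation p = 0.9) and by -0.04 in those labelled Su(var)3-9 RNAi (exact permutation p = 0.8). Against eIF2gamma (CG6476-RB), the log2 ratio of egg differed by 0.09 in each comparison, and that of G9a by 0.06 and 0.13, all with exact permutation p between 0.6 and 0.8. The ratios to CG6476-RA in the Su(var)3-9 RNAi-labelled libraries did not overlap with the control. They differed by -7.11 for egg and -7.06 for G9a on the log2 scale (exact permutation p = 0.1 each, adjusted over the 10 ratio tests 0.5). This follows the level of CG6476-RA, and the order of transcripts became CG6476-RA, CG6476-RB, egg and G9a in all 3 of these libraries.

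The values of egg and G9a in a single library were set beside those of other genes of like length. In the Su(var)3-9 RNAi-labelled libraries, the median difference of genes over 6000 bases from the control mean was -0.76, -0.46 and 0.19 on the log2(TPM + 1) scale in replicates 1, 2 and 3. G9a, whose transcript is of that length, differed by -0.37, -0.19 and 0.34. Genes of 2000 to 4000 bases had medians of -0.48, -0.33 and 0.09, and egg, of that class, differed by -0.35, -0.36 and 0.21. In replicates 1 and 2 long genes were lower than short ones, and in replicate 3 the medians were above 0 in every length class. Within the HP1a RNAi-labelled libraries, genes over 6000 bases had medians of -0.18, -0.27 and -0.44, where G9a differed by -0.13, 0.00 and -0.17. Genes of 2000 to 4000 bases had medians of -0.26, -0.31 and -0.24 there, and egg differed by -0.07, -0.11 and -0.19. On this scale both enzymes were thus above the median of their class in all 3 of these libraries, and did not follow its order among them. The log2(TPM + 1) scale understates the differences of a low feature such as G9a, which averaged 1.21 TPM over the 9 libraries. How far this sets the place of G9a beside its class was not tested. The part of transcript length in the values of egg and G9a was not tested.

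**Figure D4:**
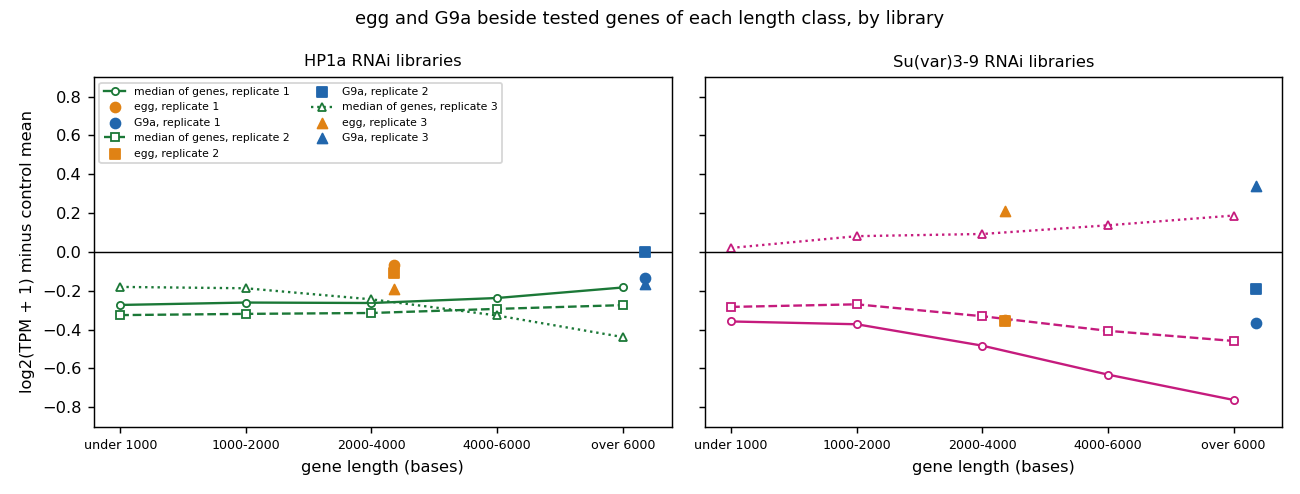
Difference of log2(TPM + 1) from the control mean (vertical axis) in each library labelled HP1a RNAi (left) or Su(var)3-9 RNAi (right). Lines join the medians of tested genes in 5 classes of gene length in bases (horizontal axis), and filled symbols are egg (orange) and G9a (blue), with a symbol shape for each replicate. In Su(var)3-9 RNAi replicate 3 the medians, egg at 0.21 and G9a at 0.34 are all above 0, and in replicates 1 and 2 all are below.

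The proteins that work with the H3K9 methyltransferases were looked at as lists. Here and for the lists below, values are set beside all tested genes and not beside genes of like length. The share of all tested genes with an unadjusted limma p under 0.05 was not counted. No surplus is therefore to be read from the list counts at that limit. Of 18 partners and readers of H3K9 methylation other than HP1a itself, 17 were tested. In the HP1a RNAi comparison 1 was called lower and none higher, where 4.12% of all tested genes were called lower. The median log2 fold change of the list was -0.22, against -0.27 for all tested genes, and 3 had an unadjusted limma p under 0.05. The gene called was wde, the cofactor that stabilises egg and is needed for its activity. wde had 1.94, 2.65 and 2.19 TPM in the HP1a RNAi-labelled libraries, against 4.28, 3.53 and 3.89 TPM in the control, without overlap. Its log2 fold change was -0.59 (95% interval -0.92 to -0.26, limma adjusted p = 0.0454), or -0.32 relative to the median of all genes. Over the alternatives its adjusted p ran from 0.0184 to 0.320, and the call held in 3 of 13. All 3 libraries below every control is a pattern that 31.5% of tested genes had in this comparison, and 5 of the 17 partners. The others with the largest values were sov, which acts in HP1a-dependent silencing (-0.46, limma adjusted p = 0.106), and XNP, the ATRX helicase (-0.43, limma adjusted p = 0.164).

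No partner was called in the Su(var)3-9 RNAi comparison, where the median was -0.14, against -0.23 for all tested genes, and 2 had an unadjusted limma p under 0.05. wde had 1.02, 1.46 and 3.19 TPM in the Su(var)3-9 RNAi-labelled libraries, again all below the control, which was so for 7.91% of tested genes. Its log2 fold change was -0.83 (limma adjusted p = 0.420). Without replicate 3 it was -1.13 (limma adjusted p = 0.00103), a setting in which 724 genes were called and 10.9% of tested genes were called lower. sov was at -0.65 (limma adjusted p = 0.530) and Su(var)2-HP2, an HP1a-binding protein, at -0.48 (limma adjusted p = 0.740). The count of partners called lower was 3 of 17 without Su(var)3-9 RNAi replicate 3 (10.9% of all tested genes), and 7 of 17 in the HP1a RNAi comparison without control replicate 2 (41.6% of all tested genes).

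The enzymes that remove H3K9 methylation were low and gave no call. All 3 were tested, with a median log2 fold change of -0.24 in the HP1a RNAi comparison and -0.43 in the Su(var)3-9 RNAi comparison, and 1 had an unadjusted limma p under 0.05 in each. That gene was Kdm4B, which had 1.58, 1.22 and 0.63 TPM in the HP1a RNAi-labelled libraries and 0.77, 0.87 and 1.51 TPM in those labelled Su(var)3-9 RNAi, against 1.83, 1.74 and 2.25 TPM in the control. Its log2 fold change was -0.48 in the HP1a RNAi comparison (limma adjusted p = 0.141) and -0.53 in the Su(var)3-9 RNAi comparison (limma adjusted p = 0.577). In the same comparisons Kdm3 was at -0.24 and -0.43, and Kdm4A at -0.05 and 0.13. Without Su(var)3-9 RNAi replicate 3, 1 of the 3 was called lower, where 10.9% of all tested genes were.

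Methyltransferases for other histone lysines gave no call either. Of 10 in the list, 9 were tested and all 9 had a fold change below 0 in both comparisons. With median-ratio size factors 6 of the 9 were below 0 in the HP1a RNAi comparison and 9 in the other, and with quantile normalization 7 and 8. The median was -0.29 in the HP1a RNAi comparison, where 3 had an unadjusted limma p under 0.05, and -0.28 in the Su(var)3-9 RNAi comparison, where none had. These medians lie close to those of all tested genes, and the count at an unadjusted p is not read as a surplus. Set1, the main H3K4 methyltransferase, had the largest log2 fold change of the list in size, -0.69 with HP1a RNAi (limma adjusted p = 0.0822) and -0.69 with Su(var)3-9 RNAi (limma adjusted p = 0.725). Set1 had 3.02, 5.13 and 3.99 TPM in the HP1a RNAi-labelled libraries and 1.75, 3.27 and 9.49 TPM in those labelled Su(var)3-9 RNAi, against 9.21, 6.15 and 6.04 TPM in the control. trx, another H3K4 methyltransferase, was at -0.48 with HP1a RNAi and at -0.63 with Su(var)3-9 RNAi. gpp, which methylates H3K79, was at -0.39 and -0.35 in the same comparisons. Without control replicate 2, 3 of the 9 were called lower in the HP1a RNAi comparison (41.6% of all tested genes). Without Su(var)3-9 RNAi replicate 3, 4 of the 9 were called lower in the other comparison (10.9% of all tested genes).

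**Figure D5:**
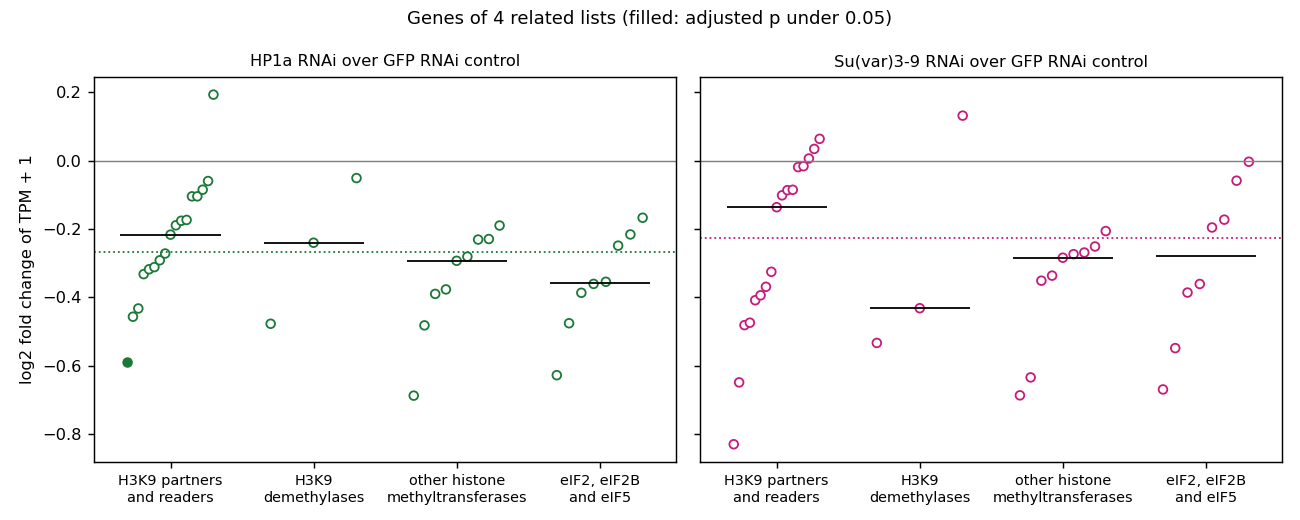
Log2 fold change of TPM + 1 (vertical axis) of the tested genes in 4 lists, for the HP1a RNAi (left) and Su(var)3-9 RNAi (right) comparisons. Each circle is a gene, filled where its adjusted p was under 0.05, black lines are list medians and the dotted line is the median of all tested genes (-0.27 and -0.23). The only filled circle is wde in the HP1a RNAi comparison, at -0.59.

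Because CG6476-RB is read as eIF2gamma, its level was set beside the factors it works with. The 8 other genes of the list, which form eIF2, its exchange factor eIF2B and its GTPase activator eIF5, were all tested. None was called in either comparison, and 1 had an unadjusted limma p under 0.05 in the HP1a RNAi comparison and none in the other. Their median log2 fold change was -0.36 in the HP1a RNAi comparison, where CG6476-RB had -0.23, and -0.28 in the Su(var)3-9 RNAi comparison, where CG6476-RB also had -0.28. In the same comparisons eIF2beta, another subunit of eIF2, was at -0.63 and -0.55, eIF5 at -0.48 and -0.67, and eIF2alpha at -0.39 and -0.36. Without control replicate 2, 5 of the 8 were called lower in the HP1a RNAi comparison (41.6% of all tested genes), and 1 in the other without Su(var)3-9 RNAi replicate 3 (10.9% of all tested genes). The log2 ratio of CG6476-RB to eIF2alpha differed from the control by 0.16 in the HP1a RNAi-labelled libraries and by 0.08 in those labelled Su(var)3-9 RNAi, and the groups overlap. Its log2 ratio to eIF2beta was -0.78, -0.59 and -1.07 in the HP1a RNAi-labelled libraries, against -1.15, -1.17 and -1.34 in the control, a difference of 0.41 without overlap. In the Su(var)3-9 RNAi-labelled libraries that ratio differed by 0.27, with overlap. No test was made on these ratios, and how often ratios of other gene pairs separate in this way was not counted. CG6476-RB itself overlapped the control in the HP1a RNAi-labelled libraries.

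The 3 genes whose log2(TPM + 1), after median-ratio size factors, followed each member most closely over the 9 libraries were ranked by Pearson r. They were sought among genes with an average of 5 TPM or more and at most 2 log2 units from the member in mean level, as a description without a test. For CG6476 these were VhaPPA1-1, a subunit of the vacuolar proton pump (r = 0.938), ATP6AP2, an accessory protein of that pump (r = 0.903), and CG3662 (r = 0.893). VhaPPA1-1 varied only between 22.9 and 37.5 TPM, so the likeness is not one of size. CG6476 itself had 262 to 463 TPM in the Su(var)3-9 RNAi-labelled libraries and 23.8 to 36.9 TPM in the other 6. Its r is therefore mainly a contrast between those sets of libraries, which remains when replicate 3 is left out. For egg they were Srg3 (r = 0.891), Mtpbeta, an enzyme of mitochondrial fatty acid oxidation (r = 0.882), and Cdk12, a kinase of RNA polymerase II (r = 0.874). For G9a they were osi (r = 0.956), RalGPS, an exchange factor for the GTPase Ral (r = 0.924), and CG7129 (r = 0.916). Without Su(var)3-9 RNAi replicate 3 these 9 values of r ran from 0.872 to 0.961. The points share their libraries and the scaling of each.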

How the data were processed

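Labels gave 3 groups of 3 libraries. The study's methods call the RNAi for RNA sequencing triplicate, without saying whether the repeats were separate cultures or wells of one, and p-values measure the spread between these libraries. By the study's methods and processing notes, the authors trimmed reads with Cutadapt 1.11, aligned them to dm3 with STAR 2.4.5a and estimated expression with RSEM 1.3.0, and they deposited TPM per gene and per transcript to 2 decimals. Posterior probabilities and fold changes in the authors' own result tables were not used. Gene names came from RefSeq (95.8% of 15168 identifiers had 1 name) and exon structure from BDGP6, and no coordinates are given.

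Differences were tested with limma (version 3.58.1, R 4.3.3, eBayes with trend, two-sided) on log2(TPM + 1), using the 6 libraries of a comparison, for features averaging 1 TPM or more, and adjusted by Benjamini-Hochberg over all of them. Shares and ratios were compared by exact permutation in scipy 1.17.1 (3 against 3 cannot go below p = 0.1). Member transcripts entered the share test where they held at least 5% of a gene with 2 or more such transcripts.

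Named genes were the 3 members with all transcripts, the HP1a gene, called genes of the lists, up to 3 genes per list with the largest fold change, and the 3 genes most like each member. The members and lists were chosen with earlier results of these data known. Alternatives were a pseudocount of 0.1 TPM, no filter, a mean of 5 TPM or more, median-ratio size factors, quantile normalization, one fit of all 9 libraries, a block by replicate number, no trend in eBayes and leaving out each library. For shares the gene TPM served as another denominator, and for ratios the other pseudocount was 1 TPM.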

Additional observations from a re-analysis of the deposited data

How the results depend on the processing

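CG6476-RA and the gene CG6476 kept their rise and their call in the Su(var)3-9 RNAi comparison under all 14 alternatives each, with log2 fold changes of 6.31 to 6.93 and 3.26 to 3.98. No alternative called egg, G9a, CG6476-RB or, in the HP1a RNAi comparison, CG6476-RA, and the gene CG6476 was called in that comparison in 1 alternative. The cause of the differences below was not tested.

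Fold changes that were below 0 turned above 0 under median-ratio size factors and quantile normalization, which move the median of all genes by over 0.1. In the HP1a RNAi comparison they became 0.14 and 0.16 for CG6476, 0.094 and 0.094 for G9a, 0.18 and 0.14 for egg, 0.19 and 0.19 for CG6476-RA, 0.11 and 0.15 for CG6476-RB, 0.17 and 0.16 for Kdm4A, and 0.028 and 0.013 for Kdm3. In the Su(var)3-9 RNAi comparison they became 0.071 and 0.14 for G9a, 0.082 and 0.075 for egg, and 0.015 and 0.10 for CG6476-RB, while quantile normalization alone gave 0.042 for eIF2alpha and 0.16 for the HP1a gene. With a pseudocount of 1 TPM the log2 ratio of egg to G9a differed by -0.023 in the HP1a RNAi comparison.

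The number of genes called in the HP1a RNAi comparison (285) was 26 without a filter, 114 at a mean of 5 TPM or more, 47 with size factors, 49 with quantile normalization and 35 with all 9 libraries. For Su(var)3-9 RNAi (11) it was 6 with a pseudocount of 0.1, 3 at 5 TPM, 5 with size factors, 5 with quantile normalization, 25 with all 9 libraries and 5 without trend. Transcripts called for HP1a RNAi (25) were 6 without a filter, 16 with size factors and 10 with all 9 libraries. For Su(var)3-9 RNAi (6) they were 3 with a pseudocount of 0.1, 3 at 5 TPM and 3 with quantile normalization. egg, G9a and wde average under 5 TPM and have no value at that filter.

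Leaving out 1 library at a time gave 60 to 2767 genes for HP1a RNAi (2767 without control replicate 2) and 5 to 724 for Su(var)3-9 RNAi (724 without its replicate 3), and 6 to 1056 and 4 to 17 transcripts. In the HP1a RNAi comparison the log2 fold change then ran from -0.41 to -0.10 for CG6476, from -0.23 to 0.034 for CG6476-RA and from -0.14 to 0.039 for Kdm4A, and in the Su(var)3-9 RNAi comparison from -0.28 to 0.074 for G9a. Differences in log2 ratio ran from -0.074 to 0.18 for egg to G9a, -0.032 to 0.20 for egg to CG6476-RB, -0.080 to 0.22 for G9a to CG6476-RB, -0.23 to 0.091 for egg to CG6476-RA and -0.27 to 0.10 for G9a to CG6476-RA in the HP1a RNAi comparison. For Su(var)3-9 RNAi they ran from -0.19 to 0.11 for egg to G9a, -0.033 to 0.20 for egg to CG6476-RB and -0.031 to 0.29 for G9a to CG6476-RB.

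With the replicate number as a block, 605 genes were called for HP1a RNAi and 108 for Su(var)3-9 RNAi, and 7 and 3 transcripts. Whether the numbers pair the libraries is not given by the labels and is not settled by these values. Deviations of same-numbered libraries correlated at -0.45 to 0.12, and 1 of 6 RNAi libraries correlated best with the control of its own number. The block changed no call among the members.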
